A study of Mus musculus with 6 samples.

Results

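The fatty acid elongases and desaturases described here were 10 genes, chosen by symbol from the 18444 genes listed in the liver RNA-seq tables. They were the elongases Elovl1, Elovl2, Elovl3, Elovl5, Elovl6 and Elovl7 and the desaturases Scd1, Scd2, Fads1 and Fads2, and all 10 were measured in all 6 libraries. Livers came from male C57BL/6 mice (C57BL/6J in the methods), given as 6 to 8 weeks old without saying whether that was before or after the diet or injections. In the diet model the libraries were SD (the chow control), HFD (high-fat diet) and HFD plus JT003, and in the CCl4 model they were corn oil (the vehicle), CCl4 (carbon tetrachloride, a hepatotoxin that causes fibrosis) and CCl4 plus JT003. JT003 is a peptide derived from adiponectin that acts on both adiponectin receptors, AdipoR1 and AdipoR2. The diets ran for 16 weeks with 500 µg/kg JT003 daily for 4 weeks, while 5 ml/kg of 20% CCl4 or corn oil was injected every 3 days for 6 weeks with JT003 for 3 weeks. The HFD and HFD plus JT003 mice carry the label NASH, a term the methods use for a high-fat diet that ends with feeding deficient in methionine and choline. The labels do not say which of the diets these livers had. A figure legend of the paper gives its diet RNA-seq groups as SD, HFD and HFD plus JT003. The paper's results also use NASH for mice on the high-fat diet alone. The methods give an 8 h fast for the mice before the livers were taken. Each condition was 1 library, and whether that was 1 mouse or a pool is not given in the sources used here. Every difference below is between libraries and has no replicate check.

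Elongases and desaturases remodel fatty acids in the endoplasmic reticulum, where elongases add carbons to an acyl-CoA chain and desaturases put double bonds into it. In liver, Elovl6 and Scd1 follow fatty acid synthase to make long saturated and monounsaturated chains such as oleate, whereas Fads2, Elovl5, Fads1 and Elovl2 act in turn on the dietary essential fatty acids to make arachidonic acid and docosahexaenoic acid. Many of these genes are known targets of the sterol-regulated factor SREBP-1c and of the nuclear receptors LXR and PPARα, and polyunsaturated fatty acids themselves lower the transcription of several. Elovl3, which makes very long saturated and monounsaturated chains, is known in mouse liver for a daily rhythm and for higher expression in males.

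RefSeq promoter sequence was matched for 6 of the 10 members (Elovl1, Elovl2, Elovl5, Elovl6, Elovl7 and Fads2), and the entries missing were those of Elovl3, Scd1, Scd2 and Fads1. Elovl1 and Elovl2 had 2 windows each, and window 1 of Elovl2 is the one shown. The 250 bases before the start of 4 genes are shown, 5′ to 3′ on the strand of the gene, because Elovl2, Elovl5 and Fads2 were lower together in the HFD library and Elovl6 was the member with the largest increase in the CCl4 library. On GRCm38.p6 they lie at chr13:41220404-41220653 (minus strand) for Elovl2, chr9:77917115-77917364 (plus) for Elovl5, chr19:10101504-10101753 (minus) for Fads2 and chr3:129532136-129532385 (plus) for Elovl6. Capitals mark matches to the 5 motifs searched on both strands: TCACNCCAC (a sterol response element type), CCAAT (the letters read by NF-Y, ATTGG on the other strand), CACGTG (an E-box), and the direct repeats of AGGTCA spaced by 1 base (DR1, of the PPARα type) or by 4 bases (DR4, of the LXR type).
Elovl2: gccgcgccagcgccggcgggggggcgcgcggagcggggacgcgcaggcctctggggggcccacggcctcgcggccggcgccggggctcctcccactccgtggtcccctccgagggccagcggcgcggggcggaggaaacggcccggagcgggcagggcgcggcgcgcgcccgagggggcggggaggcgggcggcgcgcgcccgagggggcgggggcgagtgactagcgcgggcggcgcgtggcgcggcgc
Elovl5: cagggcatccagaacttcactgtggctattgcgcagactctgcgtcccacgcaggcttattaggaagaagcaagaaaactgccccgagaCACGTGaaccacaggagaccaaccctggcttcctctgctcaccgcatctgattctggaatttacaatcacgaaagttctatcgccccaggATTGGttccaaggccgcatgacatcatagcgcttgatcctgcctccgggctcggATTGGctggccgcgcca
Fads2: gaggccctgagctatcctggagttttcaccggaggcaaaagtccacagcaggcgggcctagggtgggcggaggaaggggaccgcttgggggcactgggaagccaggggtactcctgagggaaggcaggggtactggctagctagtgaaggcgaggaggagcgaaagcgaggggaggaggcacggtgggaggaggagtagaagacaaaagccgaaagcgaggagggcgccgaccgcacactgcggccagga
Elovl6: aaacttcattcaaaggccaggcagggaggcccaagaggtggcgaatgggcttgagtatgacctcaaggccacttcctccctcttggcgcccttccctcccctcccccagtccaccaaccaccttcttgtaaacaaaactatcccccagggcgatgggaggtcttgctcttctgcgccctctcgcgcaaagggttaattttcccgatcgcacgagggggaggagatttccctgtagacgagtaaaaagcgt

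The Elovl5 window held an E-box from base -161 to -156 and CCAAT letters on the minus strand from -71 to -67 and from -17 to -13, counted back from the start of the gene. The E-box was found in 6.02% and CCAAT in 33.8% of 32851 RefSeq windows of the same length. Elovl1 had a CCAAT match from -35 to -31 in window 1 and no match in window 2. The windows of Elovl2, Elovl6, Elovl7 and Fads2 held none of the 5 letter strings. TCACNCCAC occurred in 1.05%, DR1 in 0.0335% and DR4 in 0.0152% of all windows and in no window of a member. GC content was 87.2% before Elovl2 (79.6% in window 2), 64.8% before Fads2, 55.6% before Elovl5 and 56.4% before Elovl6, against a median of 52.4% over all windows.

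Levels are given as the deposited FPKM (fragments per kilobase of transcript, scaled to library depth), which are comparable between genes. The library totals were 19374236 to 20184557 counts. Ratios between libraries are log2 ratios of counts with a prior count of 2 after scaling by trimmed mean of M-values (TMM) within a model, and the interval in brackets is the 95% counting interval, which covers counting error only. A gene was called when the log2 ratio was at least 1 in size and an exact binomial test on the counts of the 2 libraries had an adjusted p under 0.001, which compares those libraries and not the conditions. Scd1, Elovl5, Elovl2, Fads2 and Fads1 were each at 84.66 FPKM or more in every library, and Elovl3 was in that range in the control libraries. Elovl1 lay between 14.62 and 30.07 FPKM, Elovl6 between 3.97 and 14.07, Scd2 between 0.62 and 1.51, and Elovl7 between 0.10 and 0.36 on 11 to 40 counts.

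**Figure D1:**
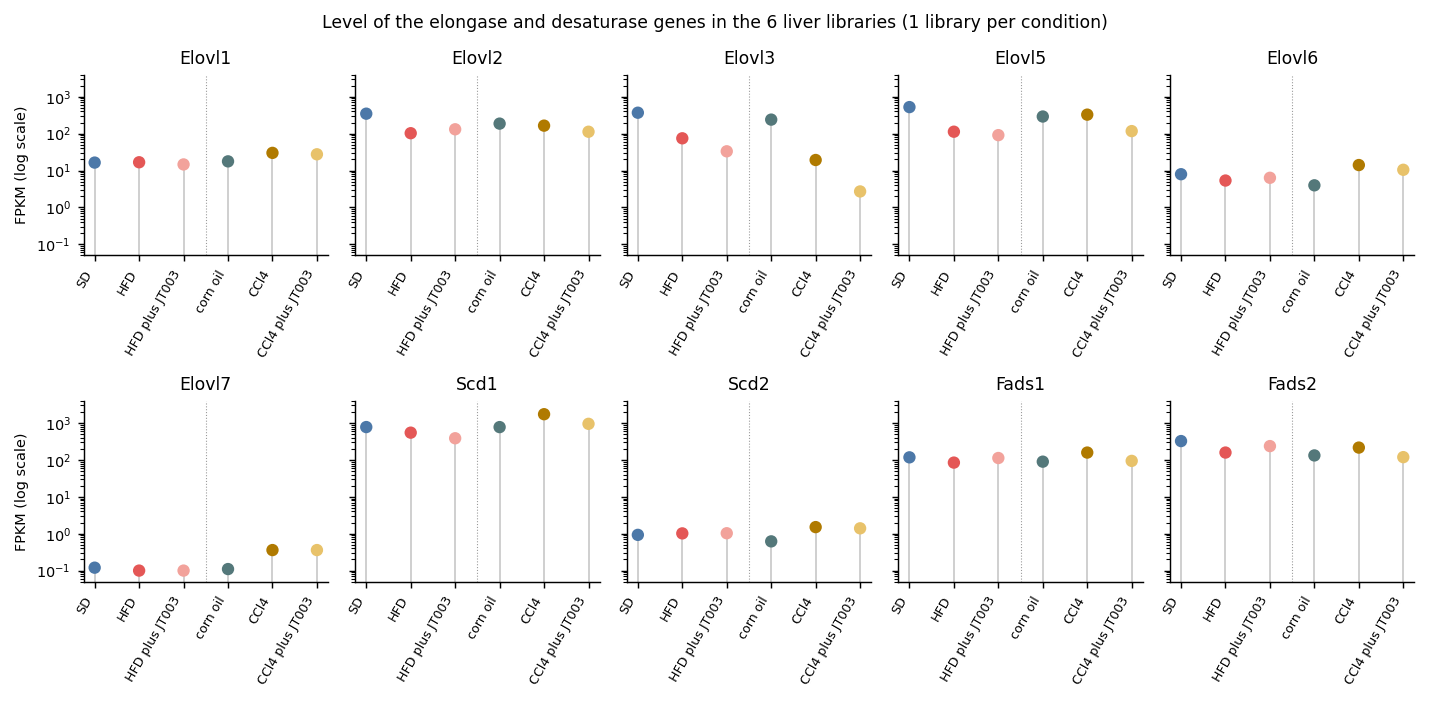
FPKM of each of the 10 genes (log axis) in the 6 libraries, 1 point per library, with the diet model left and the CCl4 model right of the dotted line. Elovl3 spans the widest range, from 369.10 in SD to 2.71 in CCl4 plus JT003, and Elovl1 and Fads1 are among the flattest.

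Elovl2 and Elovl5, which elongate polyunsaturated chains, were highest in SD. Elovl5 was at 524.00 FPKM in SD, at 112.76 in HFD and at 91.01 when JT003 was added, and at 290.99 in corn oil, at 327.22 in CCl4 and at 117.08 with JT003 added. The libraries of Elovl5 thus formed a high set (SD, corn oil and CCl4) and a low set (both HFD libraries and CCl4 plus JT003). Elovl2, which carries the chains furthest towards docosahexaenoic acid, was at 347.42, 102.66 and 131.19 FPKM in SD, HFD and HFD plus JT003 and at 186.86, 164.64 and 112.57 in corn oil, CCl4 and CCl4 plus JT003. Its lowest value was that of HFD, and the CCl4 library was 1.34-fold below corn oil after TMM scaling. The ratio of Elovl5 to Elovl2 FPKM was 1.51 in SD and 1.56 in corn oil, 1.10 in HFD, 0.694 in HFD plus JT003, 1.99 in CCl4 and 1.04 in CCl4 plus JT003, so that HFD plus JT003 was the library in which Elovl2 exceeded Elovl5.

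Fads1 and Fads2, the front-end desaturases of the same pathway, varied less across the libraries than Elovl5. Fads2, which takes the first step, was at 324.51 FPKM in SD, 158.46 in HFD, 237.24 in HFD plus JT003, 132.44 in corn oil, 216.16 in CCl4 and 119.03 with JT003 added to CCl4. Fads1, which acts after the elongation by Elovl5, was at 117.56, 84.66 and 112.74 FPKM in the diet model and at 89.76, 158.33 and 94.18 in the CCl4 model, in the same order. Both genes were lower in HFD than in either other diet library and higher in CCl4 than in either other library of that model. The ratio of Fads2 to Fads1 FPKM was 1.87 to 2.76 in the diet model and 1.26 to 1.48 in the CCl4 model.

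Scd1, the main stearoyl-CoA desaturase of liver, was the most abundant of the 10 genes in every library. It was at 777.89 FPKM in SD, at 548.57 in HFD and at 386.96 when JT003 was added, and at 776.31 in corn oil, at 1735.58 in CCl4 and at 952.12 with JT003 added. The control libraries were nearly equal, and CCl4 stood apart as the highest. Scd2, its paralog that is mainly expressed outside adult liver, was at 0.93, 1.02 and 1.03 FPKM in the diet model and at 0.62, 1.51 and 1.4 in the CCl4 model. Expected counts of Scd1, Scd2, Elovl6, Elovl7 and Fads2 were not all whole numbers, so some of their reads were divided between genes, and the values of Scd2 beside its much more abundant neighbour Scd1 are uncertain.

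Elovl6, which elongates palmitate, was at 7.94, 5.35 and 6.35 FPKM in SD, HFD and HFD plus JT003 and at 3.97, 14.07 and 10.47 in corn oil, CCl4 and CCl4 plus JT003. Elovl1, an elongase of very long saturated chains used in sphingolipids, was at 16.41, 16.75 and 14.62 FPKM in the diet model and at 17.71, 30.07 and 27.53 in the CCl4 model. Both were highest in CCl4, with CCl4 plus JT003 next. Elovl3 was at 369.10 FPKM in SD, 74.70 in HFD, 33.19 in HFD plus JT003, 239.83 in corn oil, 19.28 in CCl4 and 2.71 with JT003 added to CCl4, that is 14013, 2775, 1239, 8783, 731 and 99 counts. The control library was the highest and the JT003 library the lowest in both models. Elovl7, another elongase of long saturated chains, had 13, 11, 11, 12, 40 and 38 counts over the same 6 libraries.

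**Figure D2:**
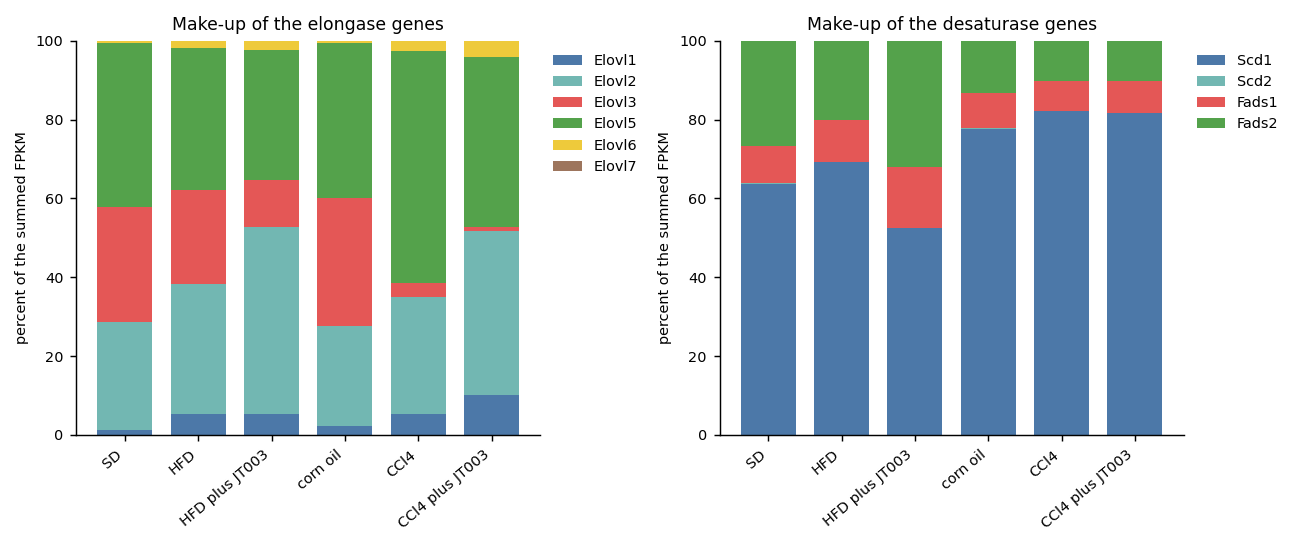
Share of each gene in the summed FPKM of the 6 elongase genes (left) and of the 4 desaturase genes (right), in percent, 1 bar per library. Elovl3 makes up 29.2% of elongase FPKM in SD and 1.00% in CCl4 plus JT003, and Scd1 makes up between 52.4% and 82.2% of desaturase FPKM.

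The summed elongase FPKM was 1265, 312 and 276 in the diet model (SD, HFD and HFD plus JT003) and 739, 556 and 271 in the CCl4 model (corn oil, CCl4, CCl4 plus JT003). Summed desaturase FPKM was 1221, 793 and 738 in the diet model and 999, 2112 and 1167 in the CCl4 model, so that desaturase over elongase FPKM was 0.965 in SD and 2.54 in HFD, and 1.35 in corn oil and 3.80 in CCl4. With JT003 the same ratio was 2.67 in the diet model and 4.31 in the CCl4 model. Within the elongases, Elovl2 made up 27.5% in SD and 47.5% in HFD plus JT003, and Elovl5 made up 58.9% in CCl4.

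The HFD and SD libraries were compared to see what the diet model did to these genes. Elovl3 was 5.38-fold lower in HFD (log2 ratio -2.43 [-2.49, -2.37]), Elovl5 5.06-fold lower (-2.34 [-2.38, -2.30]), Elovl2 3.68-fold lower (-1.88 [-1.92, -1.85]) and Fads2 2.23-fold lower (-1.16 [-1.21, -1.11]). These 4 of 10 members were called lower and none higher, while 2.46% of the 16973 genes tested were called lower and 2.92% higher. Elovl6, Scd1 and Fads1 were lower by smaller amounts, with log2 ratios of -0.69, -0.63 and -0.60. Elovl1, Elovl7 and Scd2 had counting intervals that included 0. Past 1.5-fold in either direction, with no test, were 7 members, all lower, against 28.8% of all genes and 18.3% of genes with at least 100 counts, which 9 members have. The median log2 ratio was -0.66 over the members and -0.00 over all genes tested. Scaling by total reads in place of TMM shifted the median of genes with at least 10 counts by 0.121 in this comparison and by 0.230 in CCl4 over corn oil.

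The HFD plus JT003 library was compared with HFD to see what the peptide added. Elovl3 was 2.27-fold lower in HFD plus JT003 (log2 ratio -1.18 [-1.28, -1.09]) and was the 1 member called, against 0.884% of 17090 genes called lower and 0.743% called higher. Fads2 was 1.48-fold higher (0.57 [0.51, 0.62]), Fads1 1.32-fold higher (0.40 [0.35, 0.45]) and Elovl2 1.26-fold higher (0.34 [0.30, 0.38]), while Scd1 was 1.43-fold lower (-0.52 [-0.54, -0.50]) and Elovl5 1.25-fold lower (-0.32 [-0.38, -0.27]). None of these 5 passed the call. The member past 1.5-fold was Elovl3, against 21.4% of all genes and 7.9% of genes with at least 100 counts, and the median log2 ratio of the members was -0.01. Against SD, the HFD plus JT003 library still had Elovl3 at a log2 ratio of -3.61, Elovl5 at -2.66, Elovl2 at -1.54 and Scd1 at -1.15, all 4 called lower, where 2.76% of all genes were called lower and 3.16% higher. Fads2 was not called in that comparison (-0.59) and Fads1 was at -0.20.

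CCl4 was compared with corn oil to see what the injury did. Elovl3 was 14.6-fold lower in CCl4 (log2 ratio -3.87 [-3.99, -3.77]), Elovl6 was 2.99-fold higher (1.58 [1.44, 1.74]) and Scd2 2.03-fold higher (1.02 [0.62, 1.47]). So 1 member was called lower and 2 higher, against 2.41% and 4.76% of 17234 genes. Scd2 was just under the threshold, at 0.99, with TMM over 6 libraries. Scd1 was 1.90-fold higher (0.92 [0.91, 0.94]) and Elovl7 was at 1.32 [0.49, 2.51] on few counts, and neither was called. Fads1, Elovl1 and Fads2 were 1.49-fold, 1.44-fold and 1.38-fold higher. Elovl2 was 1.34-fold lower (-0.42 [-0.46, -0.39]) and was not called. Elovl5 differed little, and its sign depended on the scaling (-0.07 with TMM and 0.17 with total reads). Past 1.5-fold were 5 members (4 with at least 100 counts), 4 higher and 1 lower, against 33.3% of all genes and 21.7% of genes with at least 100 counts, and the median log2 ratio was 0.55 over the members and 0.00 over all genes.

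In the library of CCl4 plus JT003, all 10 members had log2 ratios below 0 against the CCl4 library, the smallest being those of Elovl7 (-0.08), Scd2 (-0.17) and Elovl1 (-0.19). Elovl3 was 7.31-fold lower (log2 ratio -2.87 [-3.21, -2.59]) and Elovl5 2.93-fold lower (-1.55 [-1.59, -1.51]), the 2 members called lower, against 2.51% of 17393 genes called lower and 1.91% higher. Scd1 was 1.91-fold lower (-0.93), Fads2 1.90-fold (-0.93), Fads1 1.76-fold (-0.82) and Elovl2 1.53-fold (-0.61), and none of these was called. The counting intervals of Elovl7 and Scd2 included 0. Past 1.5-fold were 6 members, all lower, against 29.3% of all genes and 17.5% of genes with at least 100 counts, and the median log2 ratio was -0.72 over the members. Against corn oil, Elovl3 was 107-fold lower in CCl4 plus JT003 (-6.74 [-7.07, -6.48]), Elovl5 was at -1.62 and Elovl2 at -1.04 (-0.73 and not called with total reads), all called lower, and Elovl6 was called higher at 1.09, where 1.72% of 17338 genes were called lower and 3.23% higher. Scd1 lay at the level of corn oil in that comparison (-0.01 [-0.02, 0.00]).

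**Figure D3:**
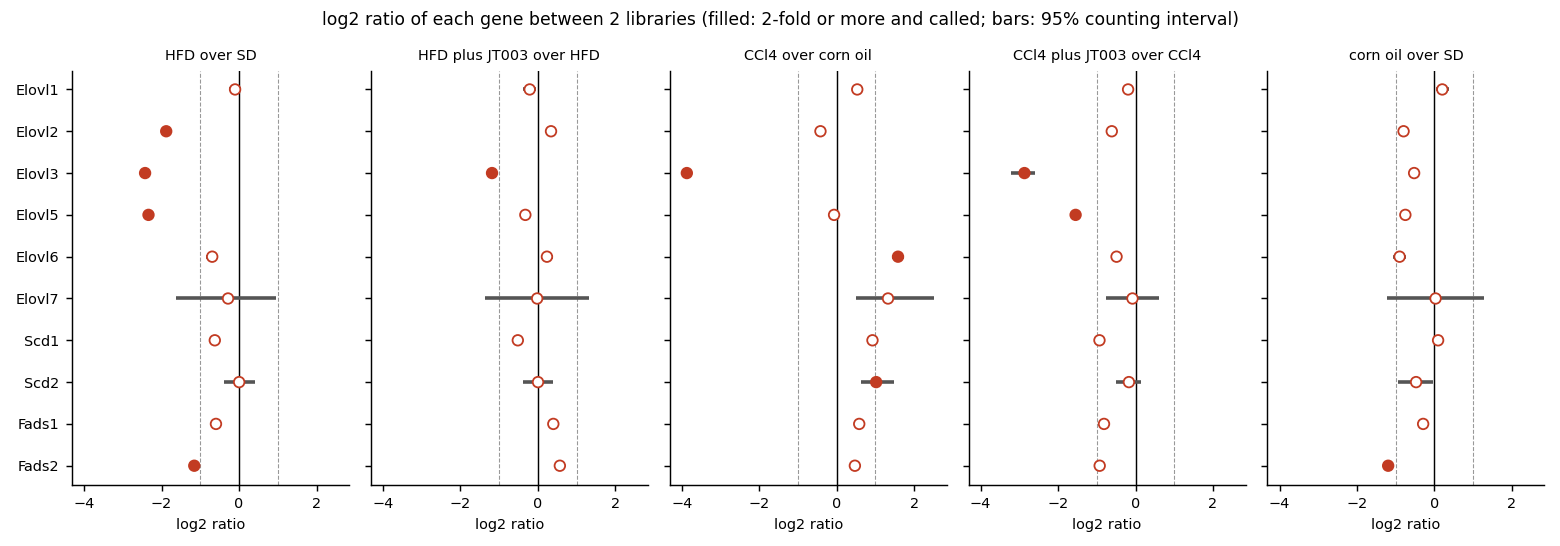
log2 ratio (x axis) of each of the 10 genes in 5 pairs of libraries, with the 95% counting interval as a bar and called genes filled, and dashed lines at -1 and 1. Elovl3 is left of -1 in the first 4 panels, and the last panel compares the control libraries, in which Fads2 alone is called.

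The controls of the models differed for several members, which gives a scale for the other differences. Corn oil over SD was -1.19 on the log2 scale for Fads2, the 1 member called, where 3.24% of 17018 genes were called lower and 2.18% higher. Elovl6 was at -0.90, Elovl2 at -0.80, Elovl5 at -0.75 and Elovl3 at -0.52, and Scd1 at 0.09. The vehicle injections and any other differences between these control groups cannot be told apart. The call of Fads2 in HFD over SD was no larger than its difference between the controls, whereas Elovl2, Elovl3 and Elovl5 differed by more in HFD over SD than between the controls.

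A further CCl4 column, deposited in a table of the authors beside their JT003 comparison, summed to 2.97 times the counts of the CCl4 library and was below that library at 24 genes by at most 0.99 counts. It was read as a pool that holds this library and others of the same condition, though no source used here says so. The remainder after the library was subtracted gives a second reading of CCl4 livers, of unknown number. For Elovl3 the remainder was at 48.6 CPM (counts scaled to a common library size), beside 35.7 in the CCl4 library, 523 in corn oil and 4.79 in CCl4 plus JT003. Elovl6 was at 67.1 CPM in the remainder and 83.5 in the library, against 27.8 in corn oil. With TMM scaling both CCl4 readings lay on the same side of corn oil for all 10 members, in some by little. The log2 ratio of the remainder over corn oil was 0.08 for Fads2 and 0.17 for Fads1, beside 0.47 and 0.58 in the library. Elovl5 in the library was at -0.07, and its sign depended on the scaling.

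The readings differed most for Elovl5 and Scd1. Scd1 was at 5554 CPM in the remainder and 8378 in the library, beside 4420 in corn oil and 4389 in CCl4 plus JT003. Elovl5 was at 571 CPM in the remainder and 909 in the library, against 953 in corn oil and 311 in CCl4 plus JT003. With the remainder in place of the library, the log2 ratio of CCl4 over corn oil was -3.43 for Elovl3, 1.27 for Elovl6, 1.29 for Scd2, 0.33 for Scd1 and -0.74 for Elovl5. For Elovl2 it was -0.90. The ratio of CCl4 plus JT003 to the remainder was -3.32 for Elovl3 and -0.88 for Elovl5, so that Elovl5 was no longer called, and it was -0.34 for Scd1, -0.41 for Fads1, -0.54 for Fads2 and 0.03 for Elovl1. The CCl4 library exceeded the remainder by 0.67 on the log2 scale for Elovl5, 0.59 for Scd1, 0.48 for Elovl2, 0.41 for Fads1 and 0.39 for Fads2.

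**Figure D4:**
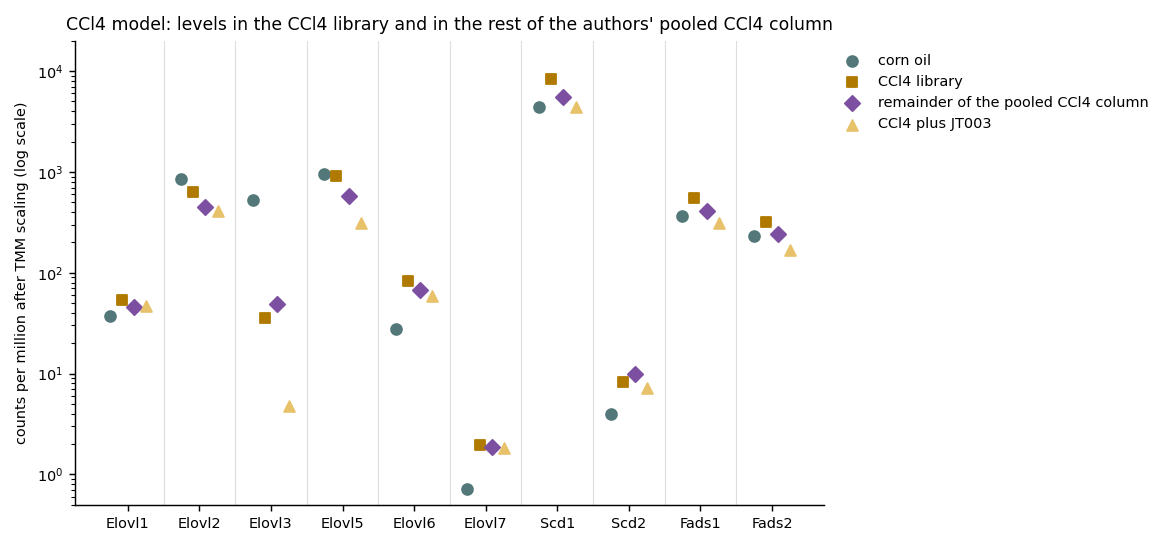
CPM after TMM scaling (log axis) of the 10 genes in corn oil, the CCl4 library, the remainder of the pooled CCl4 column and CCl4 plus JT003. The CCl4 readings of Elovl3, 35.7 and 48.6, both lie between corn oil at 523 and CCl4 plus JT003 at 4.79, while those of Elovl5 differ as 909 and 571.

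The elongase step is followed by a reduction (Hsd17b12), a dehydration (Hacd1 to Hacd4) and a last reduction (Tecr), and none of these 6 genes was called in any of the 4 main comparisons. Their median log2 ratio was -0.33 in HFD over SD, with all 6 below 0, and -0.52 in CCl4 plus JT003 over CCl4, with 4 below 0. Tecr was at 119.57, 94.09 and 88.69 FPKM in the diet model and at 159.40, 220.14 and 164.19 in the CCl4 model. Hacd3 had the largest difference of the list in HFD over SD, at -0.92, as did Hacd4 in HFD plus JT003 over HFD (0.62) and in CCl4 over corn oil (0.89) and Hacd2 in CCl4 plus JT003 over CCl4 (-0.58). Of the 6 genes for cytochrome b5 and its reductases, which hand electrons to the desaturases, none was called either, and their median was 0.46 in HFD over SD, 0.16 in HFD plus JT003 over HFD, 0.46 in CCl4 over corn oil and -0.24 in CCl4 plus JT003 over CCl4. Their largest ratios were those of Cyb5r2 in HFD over SD (1.78, at 0.11 FPKM or less), Cyb5r1 in HFD plus JT003 over HFD (0.35), Cyb5b in CCl4 over corn oil (0.70) and Cyb5r3 in CCl4 plus JT003 over CCl4 (-0.72). Among 6 other genes of the families, Fads3 was at 5.22 FPKM in SD and 1.77 in HFD, with a log2 ratio of -1.67. It was the 1 called in the 4 main comparisons. In corn oil over SD, Fads3 (2.15 FPKM in corn oil) and Fads6 (7.71) were called lower. Scd4 was at 0.73 in HFD plus JT003 over HFD, on 1 count in HFD and 3 with JT003. Degs2 was at 1.97 in CCl4 over corn oil, on 2 counts in corn oil and 16 in CCl4. Fads6 was at -0.92 in CCl4 plus JT003 over CCl4, and none of these ratios was called. Degs1, which desaturates sphingolipids, stayed between 27.58 and 35.86 FPKM. Elovl4 was not in the tables used here.

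Among 7 genes that supply saturated chains, 4 were called higher in CCl4 over corn oil: Acaca at a log2 ratio of 1.80, Fasn at 1.75, Acly at 1.62 and Acss2 at 1.01. These encode acetyl-CoA carboxylase, fatty acid synthase, ATP citrate lyase and an acetyl-CoA synthetase, and the median of the list was 1.01. In CCl4 plus JT003 over CCl4, Fasn (-1.51), Acly (-1.39) and Acss2 (-1.32) were called lower, all 7 were below 0, and the median was -0.93. Fasn was thus at 7.65, 30.48 and 11.24 FPKM over the CCl4 model, beside Elovl6 at 3.97, 14.07 and 10.47 and Scd1 at 776.31, 1735.58 and 952.12. In HFD over SD the list did not follow one direction: Acacb, the carboxylase that restrains fatty acid entry into mitochondria, was called lower at -2.26, while Fasn was at 0.19 and Acly at 0.30. Acacb was also called lower in corn oil over SD, at 7.02 FPKM in corn oil and 16.1 in SD. None was called in HFD plus JT003 over HFD, where Fasn was at 0.65.

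Regulators of lipogenic genes numbered 12. In HFD over SD, Srebf1, the gene of SREBP-1, was called higher (7.48 FPKM in SD and 23.11 in HFD), as were Insig1 (1.20), Pparg (1.35) and Thrsp (3.72), and Insig2, which holds SREBP back in the endoplasmic reticulum, was called lower (-1.58, from 287.71 to 104.83 FPKM). Thrsp was also called higher in corn oil over SD, at 16.05 FPKM in corn oil. In CCl4 over corn oil Thrsp was called higher (1.19) and Srebf1 was at 0.99, and in CCl4 plus JT003 over CCl4 Insig2 was called lower (-1.68) while Srebf1 was at 0.20. Ppara was at 72.90, 67.88 and 83.04 FPKM in the diet model and at 36.53, 35.14 and 38.16 in the CCl4 model. None of the 12 was called in HFD plus JT003 over HFD, with Thrsp the largest at 0.91.

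Acyl-CoA synthetases and phospholipid remodelling genes, which use the chains the members make, numbered 8. Acsl1, the main long-chain acyl-CoA synthetase of liver, was called lower in HFD over SD (-1.33, from 1105.52 to 480.00 FPKM), and the list's median was -0.37. Acsl1 was also called lower in corn oil over SD, at 507.93 FPKM in corn oil. All 8 were above 0 in HFD plus JT003 over HFD, none called, with a median of 0.20 and Acsl3 at 0.92. Of these 8, none was called in CCl4 over corn oil or in CCl4 plus JT003 over CCl4, and Acsl3 was called higher in CCl4 plus JT003 over corn oil. The medians were 0.04 in CCl4 over corn oil and -0.15 in CCl4 plus JT003 over CCl4, with Acsl3 at 0.87 and Acsl5 at -0.87.

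Peroxisomal genes, which shorten the longest polyunsaturated chains in the last step of docosahexaenoic acid synthesis, numbered 7, and several are textbook PPARα targets. In HFD over SD, Ehhadh (-4.67, from 2632.35 to 112.66 FPKM) and Acaa1b (-1.83) were called lower, and Abcd2, a transporter of very long chains, was called higher (1.10). The median was -0.62, beside -0.66 for the members. Ehhadh was also called lower in corn oil over SD, at 825.84 FPKM in corn oil. In HFD plus JT003 over HFD, Ehhadh was called higher (1.14, to 250.72 FPKM). In CCl4 over corn oil, Abcd2 was called higher (2.54) and the median was -0.54, and none was called in CCl4 plus JT003 over CCl4, where the median was -0.04 and Ehhadh was at -0.57.

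**Figure D5:**
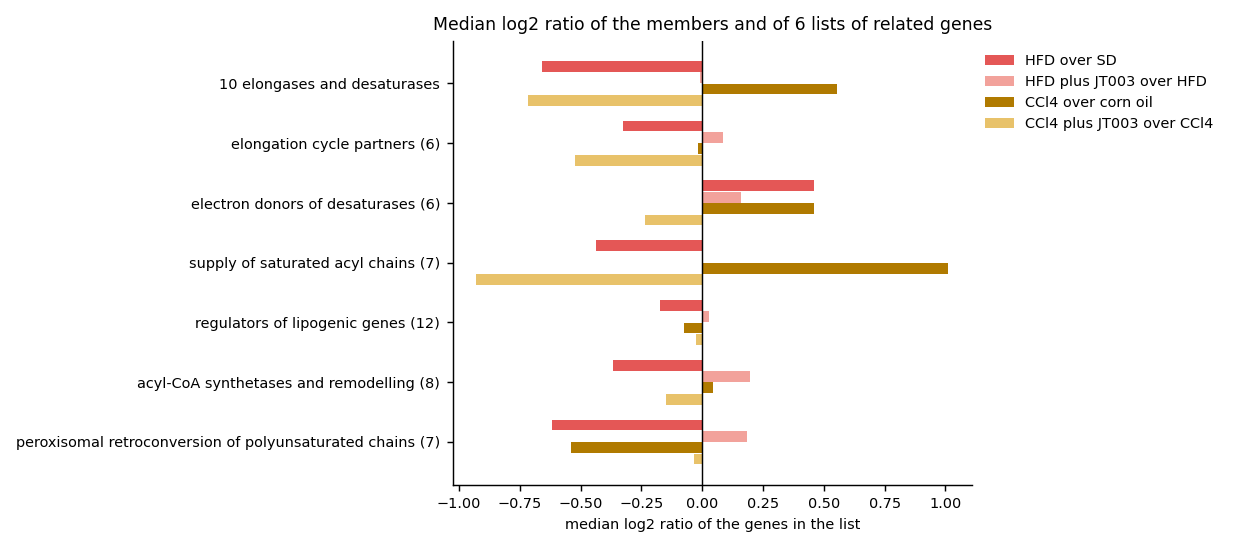
Median log2 ratio (x axis) of the 10 members and of 6 lists of related genes, with the number of genes in brackets, in 4 comparisons (1 bar each). The supply genes have the largest medians in the CCl4 model, 1.01 and -0.93, and the peroxisomal genes and the members have medians of -0.62 and -0.66 in HFD over SD.

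Because Elovl3 has a daily rhythm, 12 clock genes were set beside it. In CCl4 over corn oil, 5 were called lower and 2 higher, with Dbp from 25.27 to 2.84 FPKM and Arntl from 2.64 to 6.65. In CCl4 plus JT003 over CCl4, 7 were called higher and 2 lower, with Dbp at 59.41 FPKM and Arntl at 0.62 in CCl4 plus JT003. In HFD over SD, 4 were called higher and 2 lower, and in HFD plus JT003 over HFD, Cry1 was called higher and Nr1d1 lower. The controls differed as well. In corn oil over SD, Dbp (11.75 FPKM in SD and 25.27 in corn oil) and Ciart (0.46 and 5.74) were called higher. The hour at which livers were taken is not given in the sources used here, and the part of the clock in the members' differences was not tested.

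The 8 genes known to be higher in male liver included 7 called lower in CCl4 over corn oil, with a median of -3.31, beside -3.87 for Elovl3. Over the CCl4 model (corn oil, CCl4, CCl4 plus JT003), Cyp7b1 was at 110.41, 9.13 and 8.89 FPKM and Hsd3b5 at 14.54, 0.48 and 0.55. In CCl4 plus JT003 over CCl4 the median was 0.29 and Cyp4a12a was called higher (1.03), while Elovl3 was at -2.87. Some of the list had little room to fall, with Moxd1 at 0 counts and Hsd3b5 at 15 in CCl4. In HFD plus JT003 over HFD, Cyp4a12a was called lower (128.59 to 64.51 FPKM) and Moxd1 higher (0.23 to 5.49 FPKM), with a median of 0.01. In HFD over SD, Moxd1 was called lower (-5.98) and Hsd3b5 higher (4.14), with a median of -0.29. In corn oil over SD, Moxd1 was also called lower and Hsd3b5 higher. Of the 6 genes known to be higher in female liver, Cyp2a4 and Cyp2b9 were called higher and Cyp2c40 lower in CCl4 over corn oil. The 4 Y chromosome genes were at 1.25 FPKM or more and Xist at or below 0.05 FPKM in all 6 libraries, so every library matched the male label. The part of sex-biased expression in the members' differences was not tested.

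Differences in cell make-up run beside these results, and in bulk liver fewer cells of a type and less RNA per cell cannot be told apart. Hepatocyte markers dominated all libraries (Alb at 25390.9 to 36569.9 FPKM). Cps1, a urea cycle enzyme, was called lower in HFD over SD (630.31 to 308.33 FPKM, and 340.32 in HFD plus JT003), and Cyp2e1 was called lower in CCl4 over corn oil (-2.24). In the same comparison 4 of 6 macrophage markers, 4 of 5 cholangiocyte markers and 1 of 6 stellate cell markers (Col1a1, 3.13) were called higher. The summed FPKM of the cholangiocyte markers was 26.7 in corn oil, 104 in CCl4 and 106 with JT003 added, and that of the macrophage markers 17.5, 39.0 and 74.7. Spp1 made up 90.54 FPKM of the cholangiocyte sum in CCl4 and 95.07 with JT003 added. In CCl4 plus JT003 over CCl4, 2 cholangiocyte markers were above 0 and 3 below, with Sox9 called lower (5.21 to 2.55 FPKM). The macrophage markers were 3 above 0 and 3 below in that comparison, with Marco called higher (4.01 to 32.45 FPKM). All 5 mitosis genes were called higher in CCl4 over corn oil and lower in CCl4 plus JT003 over CCl4, with a summed FPKM of 1.30, 63.4 and 4.68. In the diet model the mitosis sum was 0.73 to 1.56 FPKM and no macrophage marker was called in HFD over SD, whereas all 6 macrophage markers were called lower in corn oil over SD. Of the adipocyte markers, Adipoq was at 0.46 FPKM or less and Plin1 at 0.16 or less in every library, and Cidec, which fatty hepatocytes also express, was at 157.88, 23.86 and 6.86 FPKM over the diet model. Endothelial markers summed to 54.2, 58.6 and 70.7 FPKM in the diet model and to 35.1, 23.01 and 35.6 in the CCl4 model, with Kdr called lower in CCl4 over corn oil and Lyve1 higher in HFD over SD. Kdr was also called lower in corn oil over SD, at 2.97 FPKM in corn oil and 9.32 in SD. Among the stellate cell markers, Col1a1 and Lrat were called higher in HFD over SD, Col1a1 was called lower with JT003 in both models and Acta2 in the CCl4 model. Acta2 was at 3.27, 2.07 and 0.9 FPKM in corn oil, CCl4 and CCl4 plus JT003, and was called higher in corn oil over SD. Lrat was at 1.28, 1.3 and 2.45 FPKM in the same order. In CCl4 plus JT003 over CCl4, 1 of the 6 stellate cell markers was above 0 and 5 were below. T and B cell markers summed to 2.22 FPKM or less. The part of these cell types in the members' differences was not tested.

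The genes most like each member over the 6 libraries were sought among 10279 genes by the root mean square difference of centred log2 levels, as a description over 6 points that share their libraries. Closest to Elovl5 was Fabp5, a fatty acid binding protein, at 0.15. Pctp, which transfers phosphatidylcholine, was closest to Elovl2 at 0.12, and Lipa, the lysosomal acid lipase, to Fads2 at 0.13. The nearest genes were Setd7 and Acnat2 for Elovl6 (0.08 and 0.12), Crip2 for Scd1 (0.14), Mrpl28 for Elovl1 (0.04) and Cryl1 for Elovl7 (0.14). No gene came near Elovl3, for which the smallest difference was 1.05 (Lhpp), followed by 1.06 for Cyp8b1, the sterol hydroxylase that sets the make-up of bile acids. Among pairs of members the most alike were Elovl6 and Scd2 at 0.29, and Fads1 and Fads2 differed by 0.39. Scd2 and Fads1 varied by less than 1 on the log2 scale and were not matched.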

How the data were processed

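RNA of mouse liver was sequenced by the authors on a BGISEQ-500, 1 library in each of 6 conditions. Per the labels' processing notes the authors used HISAT, Bowtie2 and RSEM with build mm9, with no roles or versions given. The authors deposited an expected count and an FPKM (fragments per kilobase, scaled to library depth) per gene, and a table whose pooled CCl4 column holds deposited counts. Columns of the authors' own comparisons (fold changes, p-values) were not used, nor were 3 tables that repeat the FPKM.

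Expected counts were rounded and scaled by TMM (edgeR 4.0.16 in R 4.3.3) within each model's 3 libraries, or over all 6 for corn oil against SD. Genes with at least 1 read in the pair were tested by a two-sided exact conditional binomial test with Benjamini-Hochberg adjustment (scipy 1.17.1), and called at an adjusted p under 0.001 with a log2 ratio of 1 or more in size. With 1 library per condition no p-value is printed. Intervals are 95% Clopper-Pearson intervals. Library totals of 19374236 to 20184557 counts bound the counting error, not the spread between mice. Code was tested on simulated data. Some genes are not reported here. The members, lists and motifs were chosen with earlier results of these data known. The rule for names took all members, the list genes that were called or, where none was, those with the largest ratio, and for likeness the nearest 3 of the genes with at least 100 counts in their highest library, for members with a log2 range of at least 1. Of the genes that this rule takes, only some are named for the clock, sex-biased and marker lists and for likeness, and these, like other list genes named, were chosen after their values were seen. Promoter windows are from RefSeq (GRCm38.p6), whereas the authors' build was mm9, so gene coordinates are not given. Alternatives were total reads, DESeq2 1.42.0 size factors, other TMM sets, priors, filters, thresholds, FPKM on a log2 scale, edgeR's exact test with an assumed variation, and the pooled column.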

Additional observations from a re-analysis of the deposited data

Results flagged for a closer look

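The log2 ratios of 4 members between the JT003 and untreated libraries had opposite signs in the models. They were above 0 in HFD plus JT003 over HFD and below 0 in CCl4 plus JT003 over CCl4. The log2 ratio in the CCl4 model minus that in the diet model was -1.49 for Fads2, -1.21 for Fads1, -0.95 for Elovl2 and -0.73 for Elovl6. With 1 library per condition the difference was not tested, and none of the 4 genes was called in either comparison. JT003 was given for 4 weeks in the diet model and for 3 weeks in the CCl4 model. Against the remainder of the pooled CCl4 column, the JT003 ratios of these genes in the CCl4 model were smaller but still below 0: -0.54 for Fads2, -0.41 for Fads1, -0.14 for Elovl2 and -0.18 for Elovl6.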

How the results depend on the processing

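With 1 library per condition no replicate could be left out. No paired analysis was possible because each condition has a single library. Depth does not limit most members, but Elovl7, on 11 to 40 counts, was called in none of the 7 comparisons at an adjusted p under 0.001 with TMM scaling. At an assumed coefficient of variation of 0.2 in edgeR's exact test, 3 members were called in HFD over SD. The called members numbered 2 in HFD plus JT003 over SD, 0 in HFD plus JT003 over HFD and 0 in corn oil over SD. They numbered 1 in CCl4 over corn oil, in CCl4 plus JT003 over CCl4 and in CCl4 plus JT003 over corn oil. Over the 7 comparisons, 0.111% to 2.01% of all genes were called. At 0.4 the called members numbered 1 in CCl4 plus JT003 over corn oil and 0 in the 6 other comparisons, with at most 0.342% of all genes called. With no threshold on the log2 ratio they numbered 7 in HFD over SD, 6 in HFD plus JT003 over HFD, 9 in CCl4 over corn oil, 7 in CCl4 plus JT003 over CCl4, 8 in HFD plus JT003 over SD, 8 in CCl4 plus JT003 over corn oil and 7 in corn oil over SD, where 14.2% to 28.7% of all genes were called, with no account of expression level. With a 1.5-fold threshold they numbered 7 in HFD over SD, 6 in CCl4 plus JT003 over CCl4 and 4 in corn oil over SD, against 11.1%, 10.6% and 15% of all genes. In CCl4 over corn oil, 5 members were called with total reads and 5 were past 2-fold in FPKM plus 0.1. The shares of all genes were 8.67% and 12.5% at these settings. Scd1 (1.16 in both) and Elovl7 (1.54 and 1.13) then passed, and Scd2 was at 0.99 with TMM over 6 libraries. In CCl4 plus JT003 over CCl4, 1 member was called against the remainder of the pooled column, an alternative chosen after seeing the data. There, 4.64% of all genes were called. Elovl2 in CCl4 plus JT003 over corn oil was at -0.73 with total reads and no longer called, while Scd2 (1.14) and Elovl7 (1.52) then passed. That made 5 members called in place of 4, with 7.16% of all genes called. No called log2 ratio changed sign. Uncalled ratios near 0 did under total reads: Elovl1 in HFD over SD (0.02), Elovl5 in CCl4 over corn oil (0.17), Scd1 (0.29) and Fads1 (0.07) in CCl4 plus JT003 over corn oil, and Elovl7 in corn oil over SD (-0.05). Apart from the total-reads scaling itself, the cause of these changes was not tested.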
